A study of Saccharomyces cerevisiae with 4 samples.

Results

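The flocculins and their relatives in the cell wall of Saccharomyces cerevisiae were followed as a list of 9 genes: FLO1 (YAR050W), FLO5 (YHR211W), FLO9 (YAL063C), FLO10 (YKR102W), FLO11 (YIR019C), YHR213W, YHR214W-A, YIL169C (CSS1 in RefSeq) and YOL155C (HPF1 in RefSeq). The members were taken by name, and 8 of the 9 were read on at least 1 of the 4 arrays, among 6063 genes read on any array. FLO9 was read on none. In experiment E3, wild type DY1457 cells (MATα ade6 can1 his3 leu2 trp1 ura3) carrying pYef2-Zap1TC were compared with the same strain carrying the empty vector pYef2, both in zinc-replete SD galactose medium with 1 µM zinc added. Zap1TC is a constitutive allele of Zap1, the zinc-responsive transcription factor, driven on the plasmid by the galactose-inducible GAL1 promoter, so E3 measured an overproduced factor in galactose. In experiment E4, DY1457 without a plasmid was grown in low zinc medium (LZM), which holds zinc back with EDTA and citrate, with 3 µM zinc and compared with the same strain in LZM with 3 mM zinc. Each experiment had 2 arrays from independent cultures, with the test culture in Cy5 and the reference in Cy3 on every array. Dye and condition therefore cannot be told apart within an experiment, and a difference between E3 and E4 is also one of plasmid, medium and carbon source.

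Flocculins are large glycoproteins of the yeast cell wall. Flo1, Flo5, Flo9 and Flo10 bind mannose chains on neighbouring cells and so hold cells together in clumps, while Flo11 is known for adhesion to surfaces, invasive growth and biofilms. Many of these genes lie near chromosome ends, are silent in common laboratory strains and contain repeated stretches that resemble each other, so a spotted probe for 1 member can capture transcript of another. The wall relatives are different in kind: HPF1 encodes a heavily mannosylated protein first known for reducing haze in wine, and YIL169C encodes a serine- and threonine-rich protein that resembles it. YHR213W resembles a flocculin, and no role is given here for YHR214W-A.

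All 8 members that were read in E3 were higher in Zap1TC cells than in vector cells, by 1.22-fold to 5.02-fold, and 6 of them rose at least 1.5-fold on average and at least 1.4-fold on each array, the rule the study used. In E4 only 5 members were read, and the response was narrower: YOL155C rose 6.53-fold and YIL169C 2.77-fold, YHR214W-A rose 1.29-fold, and FLO5 and YHR213W were at 1.08-fold and 0.958-fold. FLO5, YHR213W and YHR214W-A had lower ratios in E4 than in E3, and YOL155C had a higher one. In E4 the YHR213W Cy5 signal was only 1.07 and 1.34 times local background. The YHR214W-A Cy3 signal was 1.17 and 1.11 times. For these genes a weaker response in E4 cannot be told from one that was not measurable. By limma with Benjamini-Hochberg adjustment at 0.05, all 8 members tested in E3 were called higher, where 29.4% of the 5780 genes tested were called higher and 58.8% in either direction. In E4, 3 of 5 were called higher against 25.9% of 5129 genes, and none was called lower, where 25% of genes were and 50.8% were called in either direction. By the study's rule, 6 of 8 members were higher in E3 against 7.01% of genes, and 2 of 5 in E4 against 4.64%. The study had listed YHR214W-A, YOL155C and YIL169C as candidate Zap1 targets partly through this rule on these E3 arrays. YIL169C was picked through the E4 arrays as well. Their passing was thus known in advance, and these counts are a description only. The study had other evidence too. It found candidate Zap1 binding sites in the promoters of all 3. For YOL155C and YIL169C it reported the same changes by S1 nuclease protection assay, on RNA not used for the arrays. The Zap1 DNA binding domain bound the YOL155C site in vitro. No member was lower by the study's rule, where 5.35% of genes were in E3 and 1.93% in E4. The median log2 ratio was 1.69 over the 8 members tested in E3 and 0.37 over the 5 tested in E4. These 2 medians are of different sets of genes. The medians over all genes were 0.00 in each, as normalization centred each array.

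The arrays passed simple checks of the design. ZAP1 itself read 101-fold higher in E3, where the plasmid supplies it, and at least 2.81-fold higher in E4, where its Cy3 signal was not well above background. This bound is the mean Cy5 level over the mean of the lowest well-measured Cy3 signal or the gene's own, whichever was higher on each array. ZRT1, the high-affinity zinc transporter gene, was 41.1-fold higher in E3 and 99.9-fold higher in E4. The 2 arrays of an experiment correlated across genes at r = 0.944 (5780 genes) and r = 0.940 (5129 genes), which describes genes and not independent samples, and the median absolute difference between them was 0.0976 and 0.0878 on the log2 scale. The 4 α-specific genes were read well above background in both channels of all 4 arrays, and of 5 a-specific genes 5 and 4 were well above background in both channels on the E3 arrays. Of all spots on the E3 arrays, 99.7% and 99.9% passed this mark in Cy3 and 97.7% and 96.7% in Cy5. Passing it there says little about whether a gene was expressed. On the E4 arrays 2 and 1 of the a-specific genes were read, and STE6, the only one read on both, was not well above background in Cy3 on either array. The mating type label was not settled by these markers alone. Fewer cells that express a gene and less RNA per cell cannot be told apart in RNA from whole cultures.

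**Figure D1:**
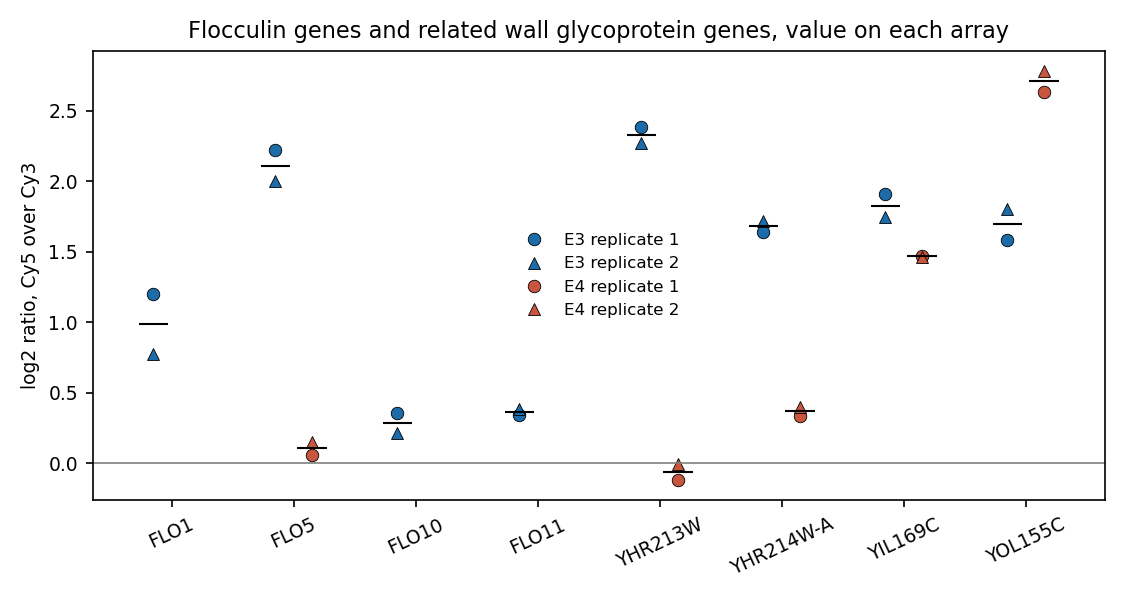
Log2 ratio of Cy5 over Cy3 for each gene on each array (circle, replicate 1; triangle, replicate 2; black bar, mean of the 2 arrays), with E3 in blue and E4 in red. In E3 every gene lies above 0, from 0.21 to 2.38, and in E4 YOL155C and YIL169C stand apart from the other genes read.

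The flocculin gene with the highest E3 ratio was FLO5, a lectin-like flocculin gene at the right end of chromosome VIII. In E3 its ratio was 4.66-fold on array 1 and 3.997-fold on array 2. The mean log2 ratio was 2.11 ± 0.16 (SD, n = 2), or 4.32-fold with a 95% interval of 3.87 to 4.81 (limma with Benjamini-Hochberg adjustment, adjusted p = 5.5e-09), and it ranked 17 of 5780 genes. Both spots on each array gave nearly the same ratio, and all 4 were bright, with Cy5 at 25.1 and 16.7 times local background and Cy3 at 7.05 and 5.21 times. The FLO5 spots thus gave signal in vector cells too. In E4 its log2 ratios were 0.06 and 0.15, with a mean of 0.11 ± 0.07 (SD, n = 2), 1.08-fold with an interval of 0.965 to 1.20 (limma with Benjamini-Hochberg adjustment, adjusted p = 0.235). Cy3 and Cy5 were then only 1.86 to 2.25 times background, though all spots passed the threshold for well above background. The interval lay within the 1.5-fold of the study's rule.

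FLO1, the best known flocculin gene, at the right end of chromosome I, was read only in E3. Its ratio was 2.30-fold and 1.71-fold on the 2 arrays, so both were above 1 but they differed more than those of any other member. The mean log2 ratio was 0.99 ± 0.30 (SD, n = 2), or 1.98-fold with an interval of 1.71 to 2.29 (limma with Benjamini-Hochberg adjustment, adjusted p = 1.53e-05). In vector cells the FLO1 spots were barely brighter than the glass around them, with Cy3 at 1.11 and 1.10 times local background against 2.00 and 1.59 times for Cy5. Of the 2 Cy3 spots on array 1, 1 was well above background, and array 2 had a single usable spot. The size of the ratio depended on how background was treated: plain subtraction gave a log2 ratio of 3.78, a 13.7-fold difference, in place of 0.99. The direction was the same.

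FLO10 and FLO11 moved little. FLO10, a flocculin gene near the right end of chromosome XI, had log2 ratios of 0.36 and 0.21 in E3. Its mean was 0.28 ± 0.10 (SD, n = 2), 1.22-fold with an interval of 1.10 to 1.35 (limma with Benjamini-Hochberg adjustment, adjusted p = 0.00478). Its spots were 2.04 to 2.71 times background in either channel. FLO11, the gene for the adhesin of invasive and filamentous growth on chromosome IX, had log2 ratios of 0.34 and 0.39. Its mean was 0.36 ± 0.03 (SD, n = 2), 1.29-fold with an interval of 1.17 to 1.42 (limma with Benjamini-Hochberg adjustment, adjusted p = 0.000817). Both genes were called, but neither reached 1.5-fold, and they ranked 1142 and 877 among the 5780 genes. The FLO11 spots were dim, at 1.22 to 1.47 times background, and plain subtraction raised its fold to 2.55 and took it past the study's rule. Neither gene was read on an E4 array.

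**Figure D2:**
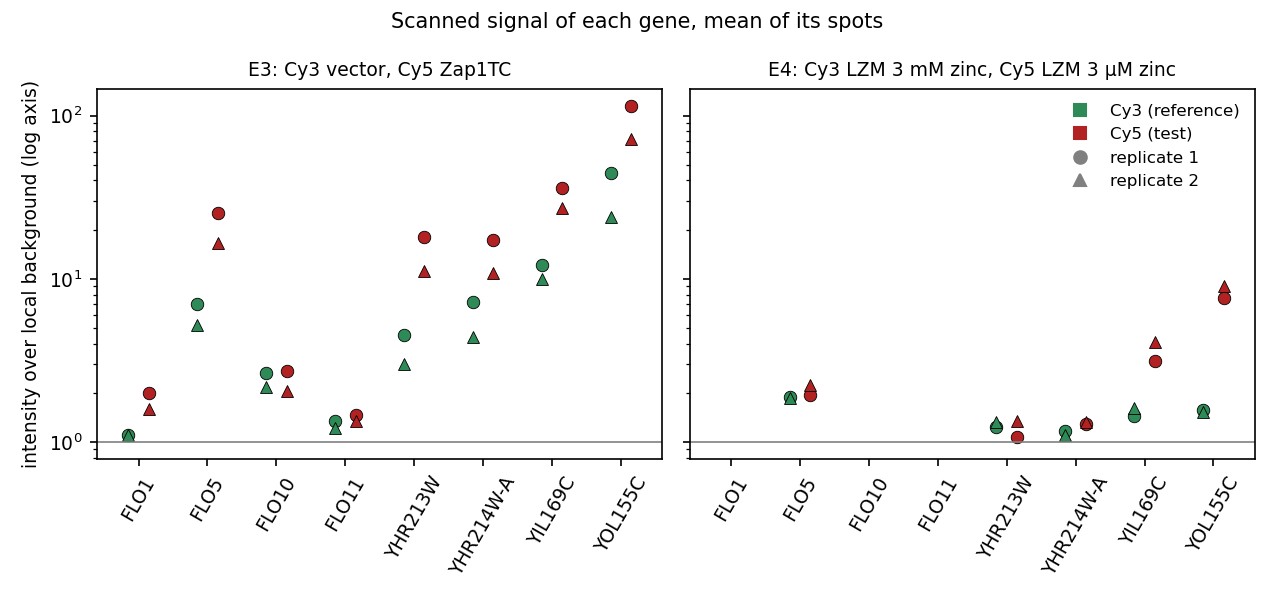
Scanned intensity over local background on a log axis for each gene (mean of its spots), with Cy3 in green, Cy5 in red, replicate 1 as circles and replicate 2 as triangles. In E3 the genes span from 1.10 times background (FLO1, Cy3) to 115 times (YOL155C, Cy5), and in E4 every Cy3 value lies under 2.

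YHR213W, the flocculin-like gene just beyond FLO5 on chromosome VIII, had the largest fold of the members in E3, except with plain subtraction, where FLO1 at 13.7-fold was above its 6.47-fold. It was 5.22-fold and 4.83-fold higher on the 2 arrays. The mean log2 ratio was 2.33 ± 0.08 (SD, n = 2), or 5.02-fold with an interval of 4.55 to 5.55 (limma with Benjamini-Hochberg adjustment, adjusted p = 1.5e-09), which placed it at rank 10 of 5780. Cy3 was 4.50 and 3.00 times background and Cy5 18.0 and 11.2 times. In E4 the log2 ratios were −0.12 and 0.00, a mean of −0.06 ± 0.08 (SD, n = 2), 0.958-fold with an interval of 0.868 to 1.06 (limma with Benjamini-Hochberg adjustment, adjusted p = 0.453). On array 1 of E4 neither of its 2 Cy5 spots was well above background, and these 2 spots differed by 0.301 on the log2 scale, the widest gap of the 20 spot pairs of the members, whose median gap was 0.0716. A change of YHR213W in low zinc was not detectable at this signal.

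YHR214W-A lies further out on the same chromosome end. In E3 its log2 ratios were 1.64 and 1.72, a mean of 1.68 ± 0.05 (SD, n = 2), or 3.20-fold with an interval of 2.91 to 3.52 (limma with Benjamini-Hochberg adjustment, adjusted p = 1.1e-08). In E4 its log2 ratios were 0.33 and 0.40, a mean of 0.37 ± 0.05 (SD, n = 2), or 1.29-fold with an interval of 1.17 to 1.42 (limma with Benjamini-Hochberg adjustment, adjusted p = 0.000747). The small E4 rise was the same on both arrays, but the spots were faint: Cy3 was 1.17 and 1.11 times background and well above it on 1 of the 2 arrays. Plain subtraction gave 2.87-fold in E4 and so took YHR214W-A past the study's rule there, and its difference between the experiments then missed the threshold (limma with Benjamini-Hochberg adjustment, adjusted p = 0.157).

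YIL169C and YOL155C, the 2 genes for mannoprotein-like wall proteins, were the members past the study's rule in both experiments. YIL169C, near the left end of chromosome IX, had log2 ratios of 1.91 and 1.75 in E3. The mean was 1.83 ± 0.12 (SD, n = 2), 3.55-fold with an interval of 3.21 to 3.92 (limma with Benjamini-Hochberg adjustment, adjusted p = 8.79e-09), and each E3 array gave 1 spot. In E4 both arrays gave 1.47, and the 4 spots behind them were alike. The E4 fold was 2.77 with an interval of 2.50 to 3.06 (limma with Benjamini-Hochberg adjustment, adjusted p = 3.82e-08). Cy3 was 12.2 and 9.93 times background in E3 and 1.44 and 1.62 times in E4. The E4 fold moved with the processing, from 2.18 in the log2 values the authors deposited to 4.55 with plain subtraction.

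YOL155C had the highest E4 ratio of the members. In E3 its log2 ratios were 1.58 and 1.81, a mean of 1.69 ± 0.16 (SD, n = 2), or 3.23-fold with an interval of 2.89 to 3.62 (limma with Benjamini-Hochberg adjustment, adjusted p = 3.46e-08). Vector cells already gave a strong signal, with Cy3 at 44.6 and 23.7 times background, and Cy5 reached 115 and 72.0 times. In E4 its log2 ratios were 2.63 and 2.78, a mean of 2.71 ± 0.10 (SD, n = 2), or 6.53-fold with an interval of 5.84 to 7.31 (limma with Benjamini-Hochberg adjustment, adjusted p = 7.6e-10). This was rank 9 of the 5129 genes in E4, where YIL169C was at rank 37, YHR214W-A at 577, FLO5 at 1781 and YHR213W at 3057. In E4 Cy3 was only 1.56 and 1.53 times background while Cy5 was 7.59 and 8.97 times. The E4 fold was 4.62 in the deposited log2 values and 11.5 with plain subtraction.

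The order of the members by E3 ratio was YHR213W, FLO5, YIL169C, YOL155C, YHR214W-A, FLO1, FLO11 and FLO10. The 2 array values of YIL169C overlapped those of YOL155C, those of YOL155C overlapped those of YHR214W-A, and those of FLO11 overlapped those of FLO10, so these neighbours in the order did not differ beyond their spread. FLO1 was lower than the 5 genes above it on both arrays, but with plain subtraction its mean log2 ratio of 3.78 was above all 5, of which YHR213W was highest at 2.69. In E4 the order was YOL155C, YIL169C, YHR214W-A, FLO5 and YHR213W, and no neighbouring values overlapped.

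The difference between the experiments was tested for the 5 members read on all 4 arrays, as a contrast over 4992 genes in which 26.8% were called higher in E4 than in E3, 21.7% lower and 48.5% in either direction. All 5 were called, 4 lower and 1 higher. FLO5 differed by −2.005 on the log2 scale with an interval of −2.23 to −1.78 (limma with Benjamini-Hochberg adjustment, adjusted p = 3.57e-07). YHR213W differed by −2.39 with an interval of −2.59 to −2.19 (limma with Benjamini-Hochberg adjustment, adjusted p = 6.66e-08). YHR214W-A differed by −1.31 with an interval of −1.51 to −1.12 (limma with Benjamini-Hochberg adjustment, adjusted p = 1.97e-06), a call that plain subtraction lost at −0.35. These are the 3 members on the right end of chromosome VIII, and each gave E3 values on both arrays above both E4 values. YHR213W and YHR214W-A were close to background in E4, and leaving out dim genes removed both from this test. YOL155C went the other way, by 1.01 with an interval of 0.79 to 1.24 (limma with Benjamini-Hochberg adjustment, adjusted p = 2.73e-05). YIL169C differed by −0.36 with an interval of −0.56 to −0.16 (limma with Benjamini-Hochberg adjustment, adjusted p = 0.00801), the smallest difference of the 5. It turned to 0.24 with plain subtraction, and without E3 replicate 1 it was −0.28 and missed the threshold (limma with Benjamini-Hochberg adjustment, adjusted p = 0.0517).

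**Figure D3:**
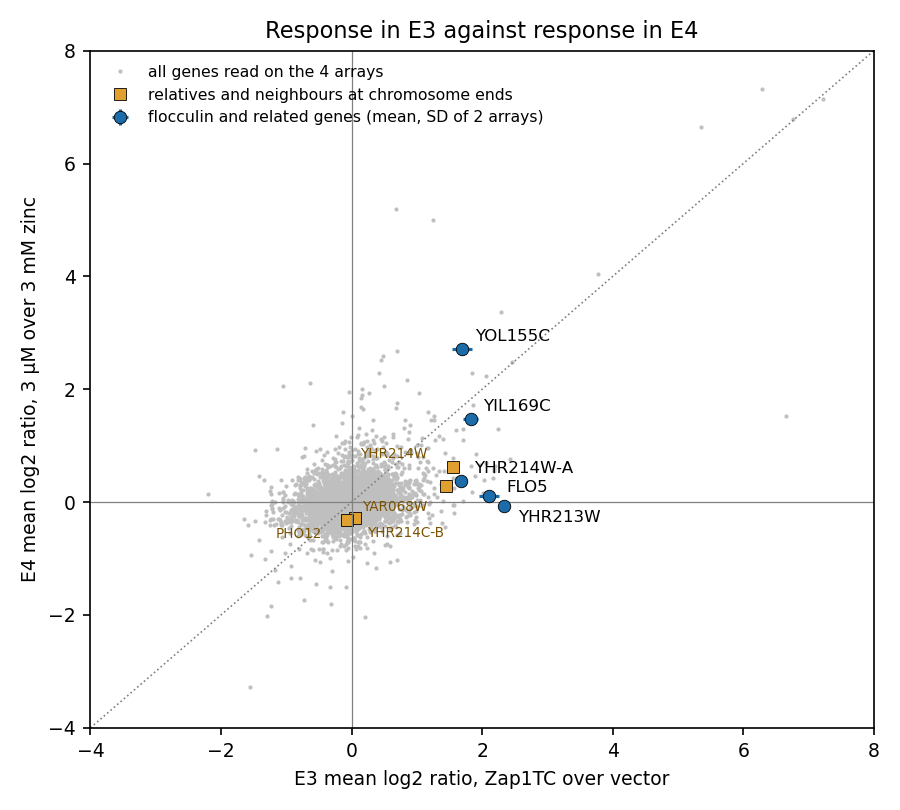
Mean log2 ratio in E3 (horizontal) against E4 (vertical) for all 4992 genes read on the 4 arrays (grey), with the 5 members as blue points (mean, SD of 2 arrays) and 4 relatives at chromosome ends as orange squares; the dotted line marks equal ratios. FLO5 and YHR213W lie near 0 in E4, and YOL155C lies above the line.

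The right ends of chromosomes I and VIII carry duplicated stretches, so the relatives beside the members were read as a list of 18 genes, of which 10 could be tested in E3. Of these, 6 rose and none fell, beside 29.4% of all genes in each direction. By the study's rule 5 were higher, against 7.01% of all genes. YAL065C, a flocculin-like gene next to FLO9 at the left end of chromosome I, was higher by 1.68 on the log2 scale, with values of 1.69 and 1.66 (limma with Benjamini-Hochberg adjustment, adjusted p = 4.26e-08). YAR062W, the chromosome I counterpart of YHR213W, was 3.01-fold higher, with log2 ratios of 1.74 and 1.44. YAR068W, the counterpart of YHR214W-A, was 2.74-fold higher, with log2 ratios of 1.38 and 1.53. The others past the rule were YHR214W at 2.93-fold and its counterpart YAR066W at 1.90-fold, and YHR212C was called at 1.17-fold. YAR060C, YAR064W, YHR214C-B and PHO12, the last an acid phosphatase gene, were at 1.03, 1.02, 1.04 and 0.951-fold and not called. YAR060C was called with plain subtraction and PHO12 with print-tip loess, and YHR212C was not called with print-tip loess.

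The rise was thus not read for every gene at these ends. YAR060C and YAR064W lay near the lowest well-measured signal in both channels of E3, so a rise of these could be missed. YAR064W was well above background in Cy5 on 1 array alone. YHR214C-B and PHO12 were well above background in both channels. In each of 5 pairs of counterparts, FLO1 and FLO5, YAR060C and YHR212C, YAR062W and YHR213W, YAR066W and YHR214W, and YAR068W and YHR214W-A, the chromosome VIII gene had the higher ratio on both arrays, which is a description since the pairs share cultures and resemble each other in sequence. With plain subtraction this held for 4 of the 5 pairs. The gap between FLO5 and FLO1 was 1.02 and 1.23 on the log2 scale and turned to −1.68 and −1.26 with plain subtraction. Cross-capture between counterparts was not tested. In E4, where 25.9% of all genes were called higher and 25% lower, only 4 of the relatives could be tested. YHR214W rose 1.55-fold and YAR068W 1.21-fold, and YHR214C-B and PHO12 fell to 0.823-fold and 0.806-fold (limma with Benjamini-Hochberg adjustment, adjusted p = 0.00105, 0.00598, 0.00731 and 0.00218).

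**Figure D4:**
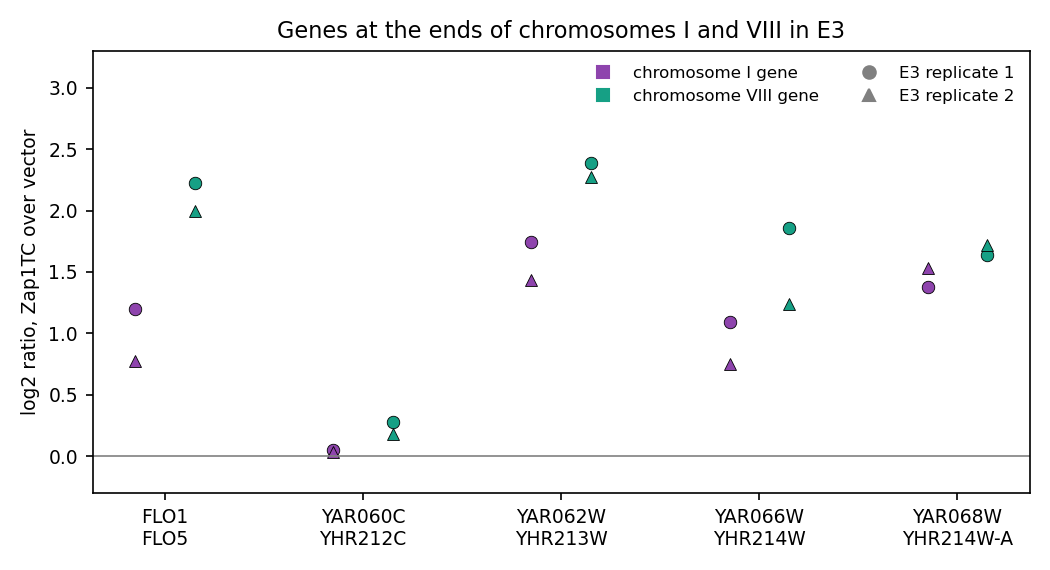
E3 log2 ratio of 5 pairs of counterpart genes, with the chromosome I gene in purple, the chromosome VIII gene in green, replicate 1 as circles and replicate 2 as triangles. In each of the 5 pairs the chromosome VIII gene is higher on both arrays (FLO1 and FLO5 reverse with plain subtraction). YAR060C and YHR212C, both dim, lie close to 0.

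The genes next to the members were read as well. The gene beside YOL155C, transcribed away from it, is ZPS1, which encodes a secreted protein related to metalloproteases, and ZPS1 had log2 ratios of 6.53 and 6.04 in E3 and 7.31 and 7.33 in E4. On its other side, the hexose transporter gene HXT11 was at 0.60 and 0.58 in E3 and 0.32 and 0.07 in E4. FLO9 itself gave no spot, and its near neighbour GDH3 had log2 ratios of 0.54 and 0.69 in E3. Beside FLO5, YHR210C was at −0.12 and −0.17 in E3. These neighbours were picked after their values were seen.

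Genes for known regulators of flocculin genes were taken as a list. Of 18 listed, 17 were tested in each experiment; MSS11, an activator of FLO11, had a value on 1 array alone. In E3, 4 rose and 3 fell, none past the study's rule, where 29.4% of all genes were called in each direction. FLO8, the activator of FLO1 and FLO11, had a log2 ratio of 0.11 ± 0.11 (SD, n = 2) in E3 and −0.06 ± 0.03 in E4 (limma with Benjamini-Hochberg adjustment, adjusted p = 0.163 and 0.495). In E3 ASH1 and the repressor gene NRG1 were higher by 0.48 and 0.34 on the log2 scale. MGA1 and PHD1, genes linked to filamentous growth, were 1.33-fold and 1.26-fold higher. RAS2, STE12 and TEC1, which act in the signalling that turns on FLO11, were lower by 1.38-fold, 1.29-fold and 1.16-fold. In E4, 2 rose and 6 fell, where 25.9% of all genes were called higher and 25% lower. PHD1 and STE12 were past the study's rule in E4, lower by 1.88-fold and 1.64-fold, where 1.93% of all genes were lower by it. TEC1, SNF1, RAS2 and TUP1 were lower by 1.49-fold, 1.36-fold, 1.17-fold and 1.14-fold in E4, while ASH1 and SOK2 were 1.39-fold and 1.28-fold higher. These levels are of mRNA and do not measure the activity of the proteins. With plain subtraction MGA1, NRG1 and TEC1 were not called in E3, and TUP1 and RAS2 were not called in E4.

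Genes for other cell surface adhesins and mucins were taken as a further list. Of the 6 listed, 4 rose and 2 fell in E3, where 29.4% of all genes were called in each direction. HKR1, a mucin of the osmosensing pathway, was 1.53-fold higher, AGA1 and AGA2, the subunits of the a-agglutinin, 1.36-fold and 1.23-fold, and the signalling mucin MSB2 1.16-fold. SAG1, the α-agglutinin gene, and FIG2, a mating adhesin gene, were lower by 1.24-fold and 1.17-fold. FIG2 was not called in E3 with plain subtraction or print-tip loess, nor MSB2 with plain subtraction. In E4 all 4 that could be tested were called lower: SAG1 by 3.51-fold, AGA1 by 1.29-fold and MSB2 by 1.16-fold, while the Cy5 signal of FIG2 was not well above background on either array and no fold is given. The share of all genes called lower in E4 was 25%. SAG1 is also 1 of the 4 α-specific genes, which were all called lower in E3, by 1.24-fold to 2.95-fold. In E4 MF(ALPHA)2, an α-factor gene, and STE3, the a-factor receptor gene, were lower by 9.70-fold and 1.88-fold, while MF(ALPHA)1 was at a log2 ratio of 0.20 (limma with Benjamini-Hochberg adjustment, adjusted p = 0.0696). The part of these markers in the SAG1 result was not tested.

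**Figure D5:**
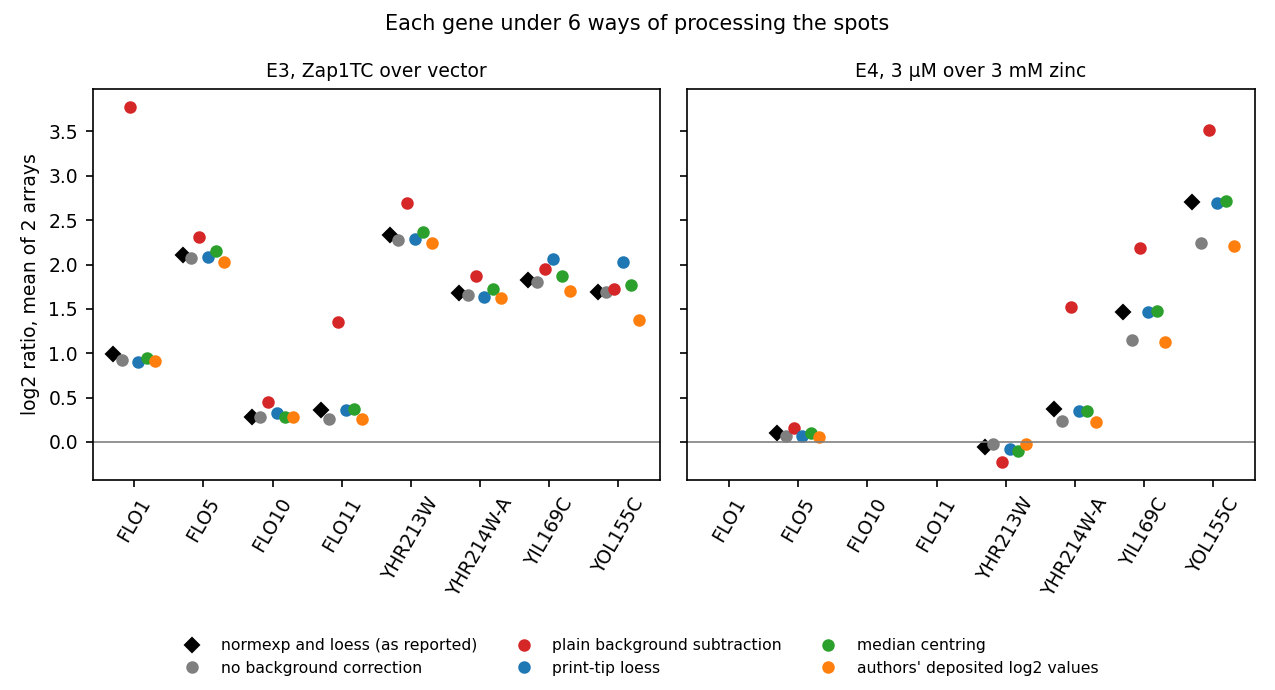
Mean log2 ratio of each gene under 6 ways of processing the spots (black diamond, as reported; coloured circles, alternatives), for E3 on the left and E4 on the right. Plain background subtraction moves FLO1 to 3.78 in E3 and YOL155C to 3.52 in E4, and the deposited log2 values lie lowest for YOL155C.

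By likeness over the 4 arrays, measured as the root mean square difference of log2 ratios among 4992 genes, the genes nearest to YOL155C were ATG41 (0.340), MNT2 (0.447), a mannosyltransferase gene, and ZRT3 (0.572), the vacuolar zinc exporter gene. The nearest to YIL169C were the protease genes LAP3 (0.151) and PRB1 (0.236), followed by YJL132W (0.301). YHR214W-A was closest to CAR2 (0.0967), YLR391W (0.0980) and YMR181C (0.119). The nearest genes to YOL155C were several times as far from it as those of YHR214W-A were from that gene. No other member was among the 3 nearest of these 3 genes. FLO5 and YHR213W were among the genes compared, but their own nearest genes were not sought, since neither was called in E4.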

How the data were processed

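Polyadenylated RNA was measured on 4 spotted 2-colour arrays, 2 per experiment, grouped by the labels. The scanner tables, as deposited by the authors, hold for each spot the mean intensity and local background intensity of Cy3 and Cy5, with flagged spots absent, and 10036 to 11303 spots per array (5295 to 5934 genes). They also hold a Cy3 column that the authors scaled and a ratio that the authors made from it, used here only to check direction. Whether the missing spots of FLO9, and of FLO1, FLO10 and FLO11 in E4, were flagged or not printed cannot be told. The deposited log2 values are the authors' LOWESS-normalized log2 ratios. Their column medians were −0.0211, −0.0208, −0.0201 and −0.0182, and they correlated with the log2 of the authors' ratio at 0.992, 0.986, 0.966 and 0.912, so they run as Cy5 over Cy3 on all arrays. The genome build was not given in the sources used here, and no coordinates are printed.

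Local background was corrected with limma 3.58.1 in R 4.3.3 (normexp, offset 50), and each array was normalized by loess (span 0.3). Spots of a gene, at most 2 for a member and 8 for any gene, were averaged on the log2 scale. A single limma fit of the 4 arrays gave each experiment its own mean and pooled their spread. Moderated two-sided p-values were adjusted over all genes (Benjamini-Hochberg, 0.05). E4 minus E3 was taken as a contrast for genes read on every array. A spot was well above background where it exceeded the local background by 2.6 SD of the channel's local backgrounds. The number of arrays limits the precision.

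By the rule for named genes, the text names the members, 2 checks, the called members of 3 lists (relatives at chromosome ends, regulators, other adhesins), and the 3 genes nearest to each member called in both experiments. List genes that were not called, mating-type markers and neighbours of the members outside these lists were named after their values were seen. The members and lists were chosen with earlier results of these data known. SAG1 and STE2 were listed with mistyped locus names, corrected here to YJR004C and YFL026W. Of 6063 genes, 5538 had names in RefSeq and 525 kept the arrays' names, YHR214W-A among them. Alternatives were another background correction, print-tip loess, median centring, the deposited log2 values, leaving out dim genes, each experiment alone, an intensity trend, a replicate block, and each array left out.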

Additional observations from a re-analysis of the deposited data

Results flagged for a closer look

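The log2 ratio in E4 differed from that in E3 for each of the 5 members read on all 4 arrays. This was by limma's contrast with Benjamini-Hochberg adjustment, which called 48.5% of the 4992 genes tested. In E4, YHR213W and YHR214W-A were close to background. With plain background subtraction the call held for 3 of the 5, and was lost for YHR214W-A and YIL169C, the latter with a turned sign. On the log2 scale the difference, E4 minus E3, was −2.005 for FLO5, −2.39 for YHR213W, −1.31 for YHR214W-A, −0.36 for YIL169C and 1.01 for YOL155C. The contrast also compares plasmid, medium and carbon source, which cannot be told apart from it.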

How the results depend on the processing

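Of 190 values of members under the alternatives, 187 kept their direction and their side of the threshold. The exceptions were the difference E4 minus E3 of YIL169C, which turned to 0.24 with plain background subtraction and was −0.28 without E3 replicate 1, and that of YHR214W-A, which was −0.35 with plain subtraction, past the threshold no longer. The count of 187 overstates how stable the values were. Leaving out dim genes, each experiment alone, an intensity trend and a replicate block keep the log2 ratio as it is. They can alter only the p-value or drop the gene. Leaving out 1 of 2 arrays of like sign cannot turn a ratio. Size was not counted either: FLO1 in E3 went from 1.98-fold to 13.7-fold with plain subtraction. With plain subtraction 3 members were called in the difference in place of 5. With dim genes left out, which dropped YHR213W and YHR214W-A, the 3 members still tested were called. Without 1 array, the members called were 5 to 5 in E3, where FLO1, FLO10 and FLO11 kept 1 array and were not tested, 3 to 3 in E4 and 4 to 5 in the difference. All genes called ran from 2319 to 2632 in E3, from 1691 (without E4 replicate 1) to 1889 in E4, and from 2066 to 2301 in the difference, beside 3401, 2608 and 2422. Members past the study's rule without 1 array were 6 to 6 in E3 and 2 to 2 in E4, and with plain subtraction 7 and 3.

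The replicate numbers share only a number: the deviations of same-numbered arrays correlated at −0.0738 over 4992 genes. With the replicate number as a block, which tests genes read on all 4 arrays, 5 of 5 members were called in E3, 3 in E4 and 5 in the difference, and 2984, 2528 and 2434 of all genes. Dim references limit the folds of FLO1, FLO11 and all E4 values of the members.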
